A study of Mus musculus with 54 samples.

Results

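The 14 control mice of a study of the plasticizer diisononyl phthalate (DINP) were described here on their own, to give the baseline of the obese liver and its spread between mice. They were the samples labelled as control, 14 of the 54 livers in all, and every gene of the expression table was considered in them. The control mice were male C57BL/6J, an inbred laboratory strain that becomes obese on a high-fat diet. They were on that diet from 8 weeks of age and received a daily placebo pellet with no DINP (0 mg/kg) for 20 weeks. The other 40 mice had the same diet and received 1.5 (13 mice), 15 (13 mice) or 150 mg/kg (14 mice) of DINP per day, and none of them enters the values below. As a model the group is limited to 1 strain and 1 sex on a high-fat diet, with no lean mice beside it, and RNA came from the medial lobe only. The hour of killing and the last meal of each mouse were not given in the sources used here.

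The liver makes most of the proteins of the blood plasma, oxidises and synthesises fat, produces glucose between meals, and clears drugs, hormones and bile acids. Its hepatocytes, which hold most of its RNA, share the organ with Kupffer cells (the resident macrophages), endothelial cells of the sinusoids, stellate cells that store retinoids and can deposit collagen, and bile duct cells. Many hepatocyte genes follow the time of day through the circadian clock, the sex of the animal through the rhythm of growth hormone, feeding through insulin and SREBP-1c, sterol content through SREBP-2, and infection or injury through cytokines. In male mice the major urinary proteins (Mup), small carriers of pheromones, are among the products that depend on the male pattern of growth hormone.

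The promoters of 7 genes are shown, because their genes fell into 3 of the sets that varied together between these mice. They are the 250 bases before the annotated start in RefSeq (GRCm38.p6), written 5′ to 3′ on the strand of the gene, with the letters that match a motif in capitals. Isg15 (minus strand, chr4:156200819-156201068), Rsad2 (minus strand, chr12:26456453-26456702) and Cxcl10 (minus strand, chr5:92348890-92349139) code for interferon-induced products, and their capitals mark a match to the core of an interferon response element, a pair of TTTC with any 2 bases between them, on either strand.
Isg15: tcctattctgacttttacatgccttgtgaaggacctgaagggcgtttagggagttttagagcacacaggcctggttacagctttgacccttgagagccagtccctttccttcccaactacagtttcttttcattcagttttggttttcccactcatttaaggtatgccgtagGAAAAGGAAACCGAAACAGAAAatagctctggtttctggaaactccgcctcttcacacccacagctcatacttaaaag
Rsad2: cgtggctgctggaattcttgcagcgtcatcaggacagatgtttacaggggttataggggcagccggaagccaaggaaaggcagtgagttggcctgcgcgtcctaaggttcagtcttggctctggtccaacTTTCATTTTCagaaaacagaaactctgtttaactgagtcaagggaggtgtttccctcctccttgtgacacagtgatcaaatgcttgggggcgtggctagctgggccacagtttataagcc
Cxcl10: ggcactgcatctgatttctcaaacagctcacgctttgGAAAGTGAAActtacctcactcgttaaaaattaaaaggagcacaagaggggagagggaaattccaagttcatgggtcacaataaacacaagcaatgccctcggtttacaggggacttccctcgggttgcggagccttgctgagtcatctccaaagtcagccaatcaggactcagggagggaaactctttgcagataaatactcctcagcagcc
Saa1 (minus strand, chr7:46742981-46743230) and Saa2 (plus strand, chr7:46751583-46751832) code for serum amyloid A, an acute phase protein. Their capitals mark TTGCNNAA, a motif of C/EBP factors.
Saa1: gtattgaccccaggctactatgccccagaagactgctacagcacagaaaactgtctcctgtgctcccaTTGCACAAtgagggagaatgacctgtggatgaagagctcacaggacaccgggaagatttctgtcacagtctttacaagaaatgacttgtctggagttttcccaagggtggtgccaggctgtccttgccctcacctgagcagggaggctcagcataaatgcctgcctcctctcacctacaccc
Saa2: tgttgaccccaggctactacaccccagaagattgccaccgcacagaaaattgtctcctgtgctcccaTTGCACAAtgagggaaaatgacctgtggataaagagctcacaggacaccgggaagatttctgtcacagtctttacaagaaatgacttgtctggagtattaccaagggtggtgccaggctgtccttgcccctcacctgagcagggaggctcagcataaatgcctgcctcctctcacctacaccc
Mup7 (minus strand, chr4:60070476-60070725) and Mup15 (minus strand, chr4:61439705-61439954) stand for the Mup cluster. Their capitals mark TTATGNAA, a loose form of the D-box of PAR-bZIP factors such as DBP. N stands for any base, and both matches read TTATGAAA, so a site that DBP binds is not shown.
Mup7: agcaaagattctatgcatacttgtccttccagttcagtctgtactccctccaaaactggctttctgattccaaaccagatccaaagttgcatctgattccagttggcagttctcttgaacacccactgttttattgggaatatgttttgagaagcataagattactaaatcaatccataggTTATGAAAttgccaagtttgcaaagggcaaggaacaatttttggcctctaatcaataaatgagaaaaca
Mup15: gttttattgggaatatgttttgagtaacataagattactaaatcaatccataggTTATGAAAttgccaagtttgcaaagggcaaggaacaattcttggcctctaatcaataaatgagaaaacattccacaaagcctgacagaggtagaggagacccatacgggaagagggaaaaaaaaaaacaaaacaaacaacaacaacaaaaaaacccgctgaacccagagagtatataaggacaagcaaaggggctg
The longest run of bases shared by both sequences of a pair was 65 for Saa1 and Saa2 and 66 for Mup7 and Mup15, and it was 8 to 11 between the 3 interferon-induced genes. Over 27025 promoters of this length, on both strands, 3.04% held the interferon response core, 9.55% held TTGCNNAA, 3.23% held TTATGNAA, 6.05% held the E-box CACGTG and 1.04% held the sterol motif TCACNCCAC. A match is a match of letters in this window and no more.

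Libraries were made from total RNA with a kit for the 3′ end of mRNA. How well this kit captures transfer, small nucleolar and mitochondrial ribosomal RNAs was not tested, so their levels and spread are uncertain. The deposited values were close to the TPM scale, which counts transcripts relative to the total of a sample. The sum of all values ranged from 747258 in replicate 8 and 857726 in replicate 9 to 1012950 in replicate 1, with a median of 964762. Of the 20162 rows, 17378 were above 0 in at least 1 mouse, 11438 had a mean of at least 1 and 6916 had a mean of at least 5. The number of sequenced reads is unknown from this table, so no counting error could be given. Over the 6916 genes, log2(value + 1) of any 2 mice correlated with a Pearson r of 0.903 (replicates 1 and 8) to 0.976 (replicates 13 and 14), median 0.967. Replicates 8, 9 and 1 stood apart. Their correlation with the median profile was 0.945, 0.960 and 0.962, against 0.982 to 0.986 in the other 11 mice, and 475, 355 and 364 of the 6916 genes lay at least 1 log2 unit from the median of the other mice, against 78 to 116. Results that rest on these mice are given with and without them.

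A few RNAs made up most of the liver transcriptome. The 20 RNAs with the highest mean held a median of 46.0% of each mouse's sum, from 40.4% in replicate 8 to 47.5% in replicate 13, and 31 RNAs were enough for 50% of the mean profile, whereas 90% took 1794. The highest was ND2, a subunit of respiratory complex I coded by mitochondrial DNA, with 71716 ± 15718 (SD, n = 14) or 7.65% of the sum. The mitochondrial ribosomal RNAs mt-Rnr2 (63302 ± 8021) and mt-Rnr1 (54122 ± 6759) followed, then ATP6 (34115 ± 7439), a subunit of ATP synthase. The 13 mitochondrial mRNAs together took a median of 20.0% of the sum, from 16.3% in replicate 8 to 22.6% in replicate 13, and both ribosomal RNAs took 12.3% (9.90% to 14.3%).

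**Figure D1:**
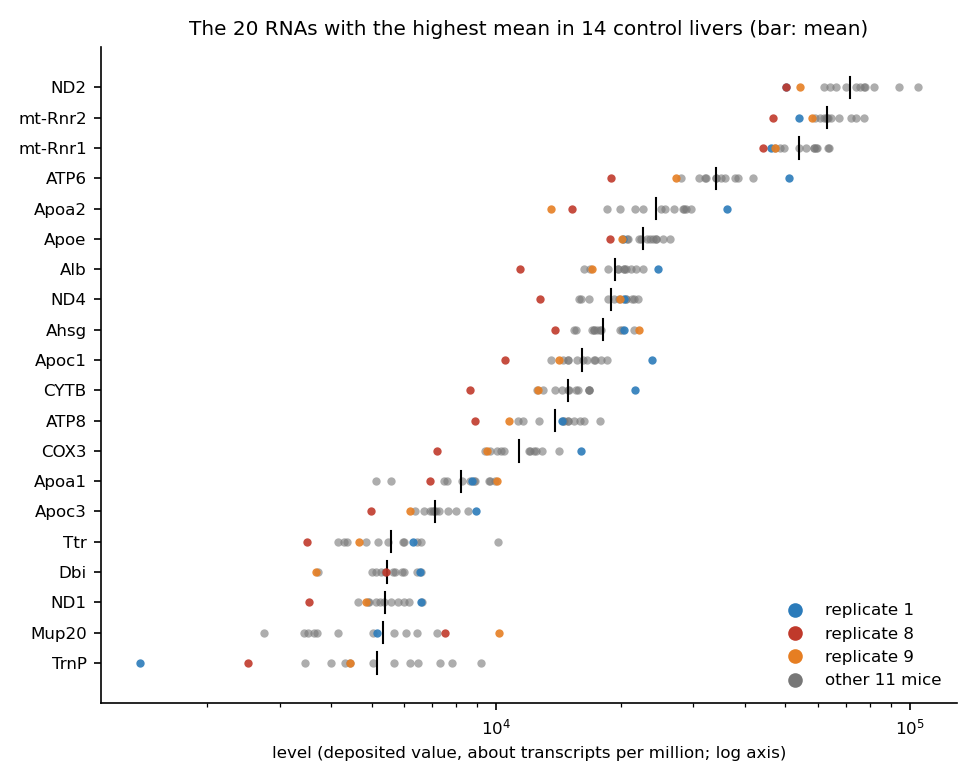
Level of the 20 RNAs with the highest mean on a log axis, 1 point per control mouse and a bar at the mean. ND2 has the highest mean at 71716 and TrnP, the last of the 20, has 5162, and the point of replicate 8 lies at or near the left end in most rows.

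On the deposited scale, secreted carriers of lipid led the nuclear genes. Apoa2 (24343 ± 6151) and Apoe (22615 ± 2205) exceeded Alb (19383 ± 3235), which codes for albumin, and Ahsg (18152 ± 2409), which codes for fetuin-A. Apoc1 (16142 ± 3018), Apoa1 (8247 ± 1541), Apoc3 (7134 ± 989), Ttr (5564 ± 1629), the acyl-CoA binding protein gene Dbi (5455 ± 903) and Mup20 (5318 ± 2042) were also among the 20. The ranges of Apoa2, Apoe, Alb and Ahsg overlapped between mice, so their order is that of the means only. Plasma protein genes, a list of 26, held a median of 16.3% of the sum (14.0% in replicate 8 to 18.9% in replicate 1), 82 ribosomal protein genes held 1.58% (1.37% to 2.15%) and 22 Mup genes held 1.53% (1.15% to 2.15%). These levels are per transcript length. When each value was multiplied by the median annotated length of the gene, 16 of the 20 RNAs were still among the highest 20. On that scale mt-Rnr2 was first and ND2 second, while TrnP, a mitochondrial transfer RNA of 67 bases, went from rank 20 to 265. Among nuclear genes Ahsg then came first at rank 5, ahead of Apoe (7), Apoa2 (9) and Alb (13). The length used for Alb was 331 bases, so the order of these genes depends on the lengths used.

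The markers of hepatocytes were high in all 14 mice. Their summed level over 10 genes ranged from 38373 in replicate 8 to 68792 in replicate 1, median 58448, and Hnf4a, a transcription factor that defines hepatocytes, was at 39.0 ± 7.54. The Y-linked genes Ddx3y (20.3 ± 2.70) and Eif2s3y (19.9 ± 3.63) were present in every mouse, as the male label requires. Markers of other cells were far lower. The 13 markers of liver endothelium summed to 169 to 213, with no outlying mouse. The 12 markers of Kupffer cells and macrophages summed to 200 to 317 in 12 mice but to 637 in replicate 8 and 652 in replicate 9, and the 10 stellate cell markers to 230 to 352 in those 12 mice and to 430 and 416. The 10 markers of lipid-associated macrophages, which gather in fatty liver, summed to 24.7 to 67.3 in the 12 mice. They summed to 295 in replicate 8 and to 129 in replicate 9. Only 4 of the 10, Lpl, Spp1, Fabp5 and Cd9, had a mean of at least 5. In replicate 8 Spp1 (129) and Lpl (69.6) carried much of the sum, and Spp1 is also on the list of bile duct markers. In a bulk liver, more cells of a type and more RNA per cell cannot be told apart. Markers of bile duct cells summed to 14.8 to 24.0 in the 12 mice, to 156 in replicate 8 and to 53.0 in replicate 9, but Spp1 and Sox9 carried that sum and Krt19, Krt7 and Epcam had means of 0.97, 0.26 and 0.69. Of the neutrophil genes S100a8 and S100a9 had means of 6.12 and 6.44 while Camp, Ngp and Cxcr2 were at 0 in all mice, and of the B and plasma cell genes Igkc (49.4) and Ighm (12.3) were present and Cd79a was at 0.07. Of the fat cell genes, Adipoq (0.14), Plin1 (0.07) and Lep (0) were near or at 0, while Car3, which hepatocytes also make, was at 2738. Cela3b and Ctrb1 of the exocrine pancreas and Fabp6 of the ileum were at 0 in all mice, with Cela1 at 28.7 and Fabp2 at 184. Muscle markers summed to at most 29.6 and mesothelial ones to at most 6.88.

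Most genes differed little between mice. Over the 6916 genes the SD of log2(value + 1) had a median of 0.25, with quartiles of 0.19 and 0.35, so that the median SD corresponded to 1.19-fold. An SD of at least 0.5 was found for 711 genes, which is 10.3%, and an SD of at least 1 for 116. Over the 12 mice without replicates 8 and 9 the same genes had a median SD of 0.23, and 495 of them (7.16%) reached 0.5 and 75 reached 1. Which mouse lay farthest from the median was uneven. Among the 711 genes it was replicate 8 for 215, replicate 1 for 135 and replicate 9 for 102, and no other mouse held more than 39.

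**Figure D2:**
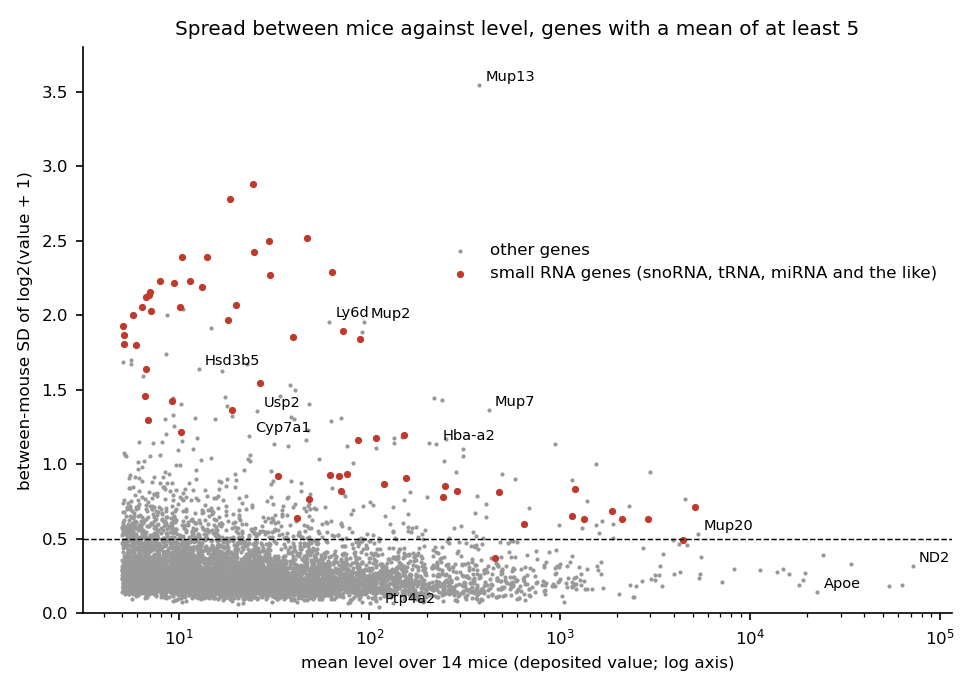
SD of log2(value + 1) over 14 mice against the mean level (log axis) for the 6916 genes with a mean of at least 5, with small RNA genes in red and a dashed line at an SD of 0.5. Most small RNAs lie above the dashed line, Mup13 is the highest point at 3.55, and Ptp4a2 is the lowest.

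Small RNAs headed the list of variable genes. Of the 20 genes with the highest SD, 19 were small nucleolar RNAs, mitochondrial transfer RNAs or microRNA genes, among them Mir6516 (SD 2.88, from 0 to 92.3), Snord4a (SD 2.78, from 0 to 73.3) and TrnC (SD 2.52, from 0 to 132.6). The 62 small RNA genes with a mean of at least 5 had a median SD of 1.50, and 60 of them reached 0.5. Their median length was 75 bases, and 36 of them were at 0 in some mouse. Their lowest value above 0 was 9.95 in the median. The 7 protein-coding genes with a 0 in some mouse had a median lowest value above 0 of 3.01. Small RNAs therefore moved in coarse steps on this scale, whose part in their spread was not tested.

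The 20 protein-coding genes with the highest SD, in a class whose median SD was 0.24, included several Mup genes but belonged to no single function. Mup13 had the highest SD of all genes, 3.55. It was at 0 in replicates 8 and 9, at 5.62 in replicate 6 and as high as 1211, with a median of 191, and its SD was still 2.44 without replicates 8 and 9. Srp54b, a subunit of the signal recognition particle with near-identical copies in the genome, had an SD of 2.00 and ranged from 0 to 21.1, and the histone gene H2ac23 had an SD of 1.67 and ranged from 0 to 66.5. Ly6d (chr15:74762056-74763620), a surface protein of the Ly6 family, had an SD of 1.96, with 518 in replicate 8 and 207 in replicate 9 against 3.04 to 39.3 in the other 12 mice. Hsd3b5, a male-specific steroid dehydrogenase of the mouse liver, ranged from 0.764 to 39.2 (SD 1.64). Gsta1, a glutathione transferase, ranged from 3.04 to 175.8 (SD 1.53), and Slco1a1, an organic anion transporter, from 1.53 to 78.3 (SD 1.50). Cyp26a1, which degrades retinoic acid, ranged from 0.935 to 44.2 (SD 1.40). Outside these 20, Cyp7a1, the rate-limiting enzyme of bile acid synthesis, ranged from 3.12 to 53.3 (SD 1.19).

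Leaving out replicates 8 and 9 sorted these genes. Of the 60 protein-coding genes with an SD of at least 1, 19 still had one in the 12 mice. They included Mup13 (2.44), Hsd3b5, Mup2 (1.43), Cyp26a1 (1.38), Usp2 (1.34) and Cyp7a1 (1.22). Ly6d went from 1.96 to 0.78, Cyp2c54 from 1.40 to 0.54 and Lpl from 1.05 to 0.21. Cyp26b1, which like Cyp26a1 breaks down retinoic acid, stayed at 1.14.

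At the other end, the steadiest gene was Ptp4a2, a protein tyrosine phosphatase, at 106 to 115.5 in all 14 mice (SD 0.045). Nit1 (19.1 to 22.3), the translation factor Eif4g2 (124 to 144), the histone variant gene Macroh2a1 (68.8 to 81.6) and the proteasome subunit gene Psmb1 (92.2 to 112.2) followed, each with an SD of 0.06 or 0.07. Ykt6, Uqcrc2, Park7, Eprs1 and Uba52rt completed the 10. None of the 16 housekeeping genes and none of the 24 ribosomal protein genes on the lists with a mean of at least 5 reached an SD of 0.5, against 10.3% of all genes. The median SD was 0.275 for the housekeeping genes, above the 0.252 of all genes, and 0.209 for the ribosomal protein genes. The housekeeping genes as a list were thus not steadier than the typical gene. Commonly used reference genes were not the steadiest. The SD was 0.30 for Gapdh (36.2 to 77.9), 0.21 for Actb (973 to 1673), 0.28 for Ppia and 0.10 for Sdha.

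Variable genes fell into sets that moved together. Among the 500 genes with the highest SD, average linkage at a mean r of 0.6 gave 8 sets of at least 8 genes, with 222 genes in all. The first principal component of these 500 genes took 29.5% of their variance. Replicates 8 and 9 were at -30.7 and -23.0 on it, replicate 6 was at -7.24 and the other 11 mice lay between 0.881 and 7.74. The second took 13.8%, with replicate 1 at -26.3 and the other mice between -2.62 and 9.65.

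**Figure D3:**
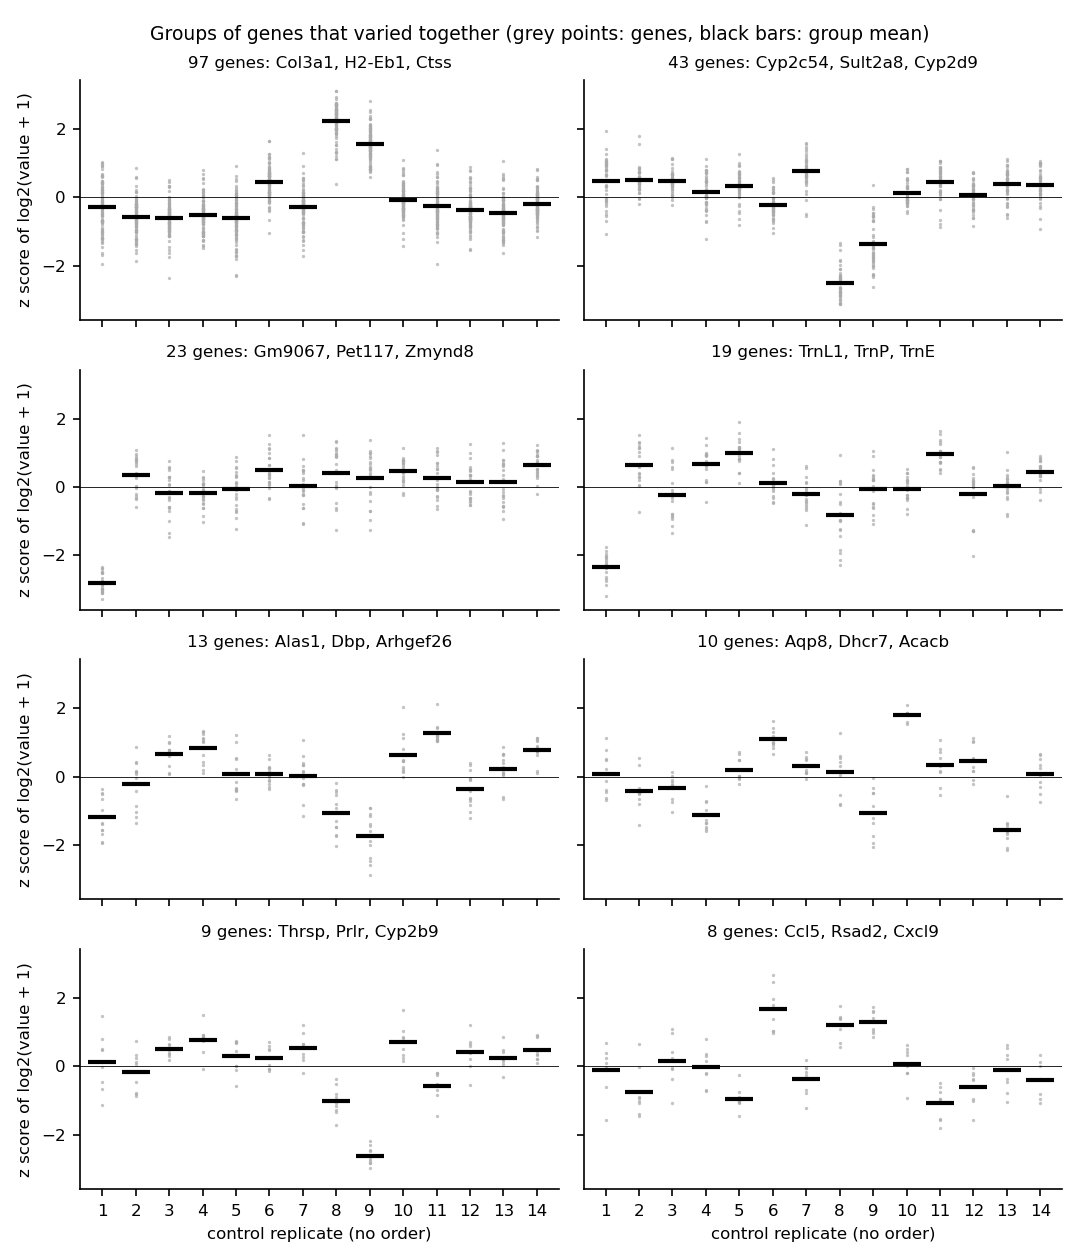
Standardised log2(value + 1) (z score) of the genes of each of the 8 sets in each control mouse, grey points for genes and black bars for the mean of the set. The sets of 97 and 43 genes move in opposite directions in replicates 8 and 9, and the sets of 23 and 19 genes are lowest in replicate 1.

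The largest set held 97 genes that were high in replicates 8 and 9. Its mean z score was 2.24 in replicate 8, 1.55 in replicate 9 and 0.45 in replicate 6, and from -0.62 to -0.09 in the other mice. It joined collagens, antigen presentation, macrophage genes, acute phase proteins, metallothioneins and glutathione transferases. Col3a1 and Col1a2, chains of fibrillar collagen, were at 48.9 and 61.9 in replicate 8 and at 25.6 each in replicate 9, against 4.96 to 12.2 and 4.96 to 13.1 in the other 12 mice. H2-Eb1, a class II antigen-presenting chain, was at 123 and 79.5 against 20.4 to 62.7. Lpl, lipoprotein lipase, which the adult hepatocyte makes little of, was at 69.6 and 47.7 against 5.93 to 10.04. The cyclin kinase inhibitor gene Cdkn1a was at 182 and 120.2 against 9.12 to 54.4, and the cyclin D1 gene Ccnd1 at 78.7 and 117 against 12.5 to 29.3. The macrophage and stellate cell markers given above were highest in the same mice, and their part in this set was not tested. Replicate 6 was the third highest mouse for Ly6d, Col3a1, Col1a2 and H2-Eb1.

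Within this set the size of the difference differed between the genes and between both mice. Relative to the median of the other 12 mice, Ly6d was 53.2 times as high in replicate 8 and 21.2 times in replicate 9. Gstm3, a glutathione transferase, was 12.4 and 9.13 times as high and Igfbp1, which binds insulin-like growth factors, 7.44 and 7.41 times. Spp1, osteopontin, was 10.3 times as high in replicate 8 but 2.18 times in replicate 9, and Mt2, a metallothionein, 11.5 and 2.71 times. Marco, a scavenger receptor of Kupffer cells that was not in the set, was high in replicate 9 only, at 48.6 against 0.960 to 4.89 in the other 13 mice. The median correlation between genes of the set was 0.76 over 14 mice and 0.28 over the 12 mice without replicates 8 and 9. Of the extracellular matrix list, 9 of 14 genes with a mean of at least 5 had an SD of at least 0.5 over 14 mice and 1 over 12, against 10.3% and 7.16% of all genes. For the macrophage list it was 6 of 10 and 1 of 10, and for antigen presentation 5 of 15 and 0 of 15.

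The set of 43 genes was the mirror image, with a mean z score of -2.50 in replicate 8, -1.37 in replicate 9, -0.22 in replicate 6 and 0.06 to 0.76 in the other mice. The correlation of its mean with that of the set of 97 genes was -0.96 over 14 mice, a description that rests on replicates 8 and 9. It held 13 Mup rows, 9 cytochrome P450 genes, transporters and other products of hepatocytes. Cyp2c54, a P450 of the Cyp2c family, was at 1.53 in replicate 8 and 7.95 in replicate 9, against 22.5 to 100.8 in the other 12 mice. Cyp2e1, which oxidises ethanol and other small molecules around the central vein, was at 592 and 866 against 1570 to 2786. Slc10a1, the bile acid uptake transporter NTCP, was at 28.3 and 69.8 against 125 to 249.4, and Sult2a8, a sulfotransferase, at 9.94 and 37.1 against 118 to 236. The nuclear receptor gene Nr1i3, which codes for CAR, was at 13.8 and 15.9 against 35.5 to 66.5.

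Not all hepatocyte products were low in both mice. Serpina3k was at 406 in replicate 8 and 1708 in replicate 9, against 1122 to 2285 in the other 12 mice. Pericentral genes summed to 2131 and 2950 against 3962 to 5555 in the other 12 mice, and as a share of each mouse's sum they were also lowest in replicate 8 (0.285%) and replicate 9 (0.344%). Periportal genes summed to 16521 and 25218, which for replicate 9 lies within the 22773 to 35579 of the other 12 mice. The 24 genes of the urea cycle and amino acid breakdown summed to 3674 in replicate 8 and 5408 in replicate 9, against 4791 to 6497. Trf, transferrin, was at 2501 and 2636 against 2163 to 2882. On the deposited scale, Ahsg was lowest in replicate 8 (13903) and highest in replicate 9 (22160), and Apoe was lowest in both, at 18882 and 20170 against 20294 to 26388. The sums of all values were also lowest in these mice, at 747258 and 857726. As a share of the sum, Apoe was lower in replicate 1, at 20294 of 1012950, than in either of them. The deposited scale holds the median gene of replicate 8 at -0.03 log2 units from the median mouse. With each mouse rescaled to the same sum, that shift became 0.26 in replicate 8 and 0.10 in replicate 9, and the shares of pericentral genes are on that second scale.

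The major urinary proteins, coded side by side on chromosome 4, varied widely as a family. All 17 of the 22 Mup genes with a mean of at least 5 had an SD of at least 0.5 over 14 mice, against 10.3% of all genes, and 11 of 17 did over the 12 mice, against 7.16%. The median SD of the family was 1.12 and then 0.69, against 0.25 and 0.23. Mup3 was at 489 and 760 in replicates 8 and 9, against 2176 to 4728 in the other 12 mice, and Mup7 (chr4:60066469-60070475) at 35.9 and 73.3 against 156 to 1358. Mup20, which codes for darcin, the pheromone that marks male urine, went the other way, at 7534 and 10160 against 2748 to 7214. Mup9 was at 46.6 in replicate 8, at 488 in replicate 9, the highest of all mice, and at 15.6 in replicate 1, the lowest. The genes of this cluster are near-identical copies, so reads may have been split between them and the values of a named member are uncertain. The match to TTATGNAA, the loose form of the D-box, was found in 6 of the 32 promoters of the set of 43 that could be matched. All 6 were in Mup genes whose promoters share long runs of sequence, as those of Mup7 and Mup15 do.

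Other genes with a male bias did not all move in the same direction. Of 22 male-biased genes with a mean of at least 5, a list that holds several Mup genes, 19 reached an SD of 0.5 over 14 mice and 9 over 12, against 10.3% and 7.16% of all genes. Hsd3b5 was at 0.764 and 0.883 in replicates 8 and 9, values of 1 step of the scale, but it was also at 0.989 in the lowest of the other 12 mice. Slco1a1 was at 1.53 and 4.42 against 12.9 to 78.3. C6, a complement protein, was highest in both mice, at 77.2 and 129 against 27.7 to 69.3. Cyp4a12a, a fatty acid hydroxylase, was highest in replicate 9, at 128, while its 24.5 in replicate 8 lay within the 15.9 to 83.1 of the other 12 mice. Elovl3, a fatty acid elongase, was lowest in replicate 8, at 15.3, while its 45.9 in replicate 9 lay within the 29.7 to 88.6 of the others. Of the 4 female-biased genes with a mean of at least 5, Cyp2b9 was low in both mice, at 10.7 and 2.65 against 19.3 to 63.3. Cyp17a1 was high, at 38.2 and 32.7 against 3.01 to 26.2.

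Lipogenic and sterol genes formed 2 separate sets. The set of 9 genes held Thrsp, Fasn and Elovl6 of fatty acid synthesis together with Prlr, the prolactin receptor, Cyp2b9 and Hamp2. It was lowest in replicate 9, with a mean z score of -2.61, and at -1.01 in replicate 8. Thrsp, a regulator of lipogenesis, was at 17.7 in replicate 9 and 98.6 in replicate 8, against 141 to 417. Fasn, fatty acid synthase, was at 22.1 in replicate 9, while its 79.5 in replicate 8 lay within the 62.4 to 151 of the other 12 mice. The median r of this set fell from 0.79 over 14 mice to 0.32 over 12. The set of 10 genes was held by other mice. It contained Fdps, Idi1 and Dhcr7 of cholesterol synthesis with Acss2, Acly, Acacb, Fabp5 and Aqp8. It was highest in replicate 10 (1.82) and replicate 6 (1.09) and lowest in replicates 13 (-1.57), 4 (-1.13) and 9 (-1.05), and its median r was 0.77 over 14 and 0.84 over 12 mice. Fdps, farnesyl diphosphate synthase, ranged from 20.1 to 204 with a median of 65.2, and its SD was 0.79 with and 0.80 without replicates 8 and 9. Of the 17 genes of cholesterol synthesis and uptake with a mean of at least 5, 7 reached an SD of 0.5 over 14 mice and 6 over 12, against 10.3% and 7.16% of all genes. For 18 lipogenic genes the counts were 8 and 3. None of the 7 promoters of the set of 10 that could be matched held TCACNCCAC in these 250 bases.

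A set of 13 genes held outputs of the circadian clock. It contained Dbp and Tef, PAR-bZIP factors that carry the rhythm to liver enzymes, with Usp2, a deubiquitinase, Alas1, the rate-limiting enzyme of haem synthesis, Mfsd2a and Onecut1. Dbp ranged from 13.2 to 124 with a median of 55.3 (SD 1.04), Usp2 from 2.08 to 56.6 with a median of 21.2 (SD 1.36) and Alas1 from 23.0 to 330 with a median of 106 (SD 1.14). The set was lowest in replicates 9 (-1.74), 1 (-1.19) and 8 (-1.08) and highest in replicate 11 (1.27). Its median r was 0.72 over 14 mice and 0.65 over 12. Over the 12 mice, and among genes with an SD of at least 0.5 other than small RNAs, the genes most like Usp2 were Tef (r = 0.96), Dbp (0.92), Spc25 (0.91), Alas1 (0.90) and Tsku (0.90), and Clpx was the most opposite (-0.97). These were picked from 651 genes and are a description. Nr1d1, which codes for the clock repressor REV-ERB alpha, varied much less, from 11.9 to 27.5 (SD 0.31). Of 12 clock genes with a mean of at least 5, 3 reached an SD of 0.5 over 14 as over 12 mice, against 10.3% and 7.16% of all genes. The hour at which each mouse was killed was not available, and its part in this set was not tested. An E-box was found in 2 of 10 promoters of the set, those of Tef and Onecut1, against 6.05% of all promoters. It was also in 2 of 7 promoters of the sterol set, those of Aqp8 and Pdzk1ip1, so it was not particular to the clock set.

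**Figure D4:**
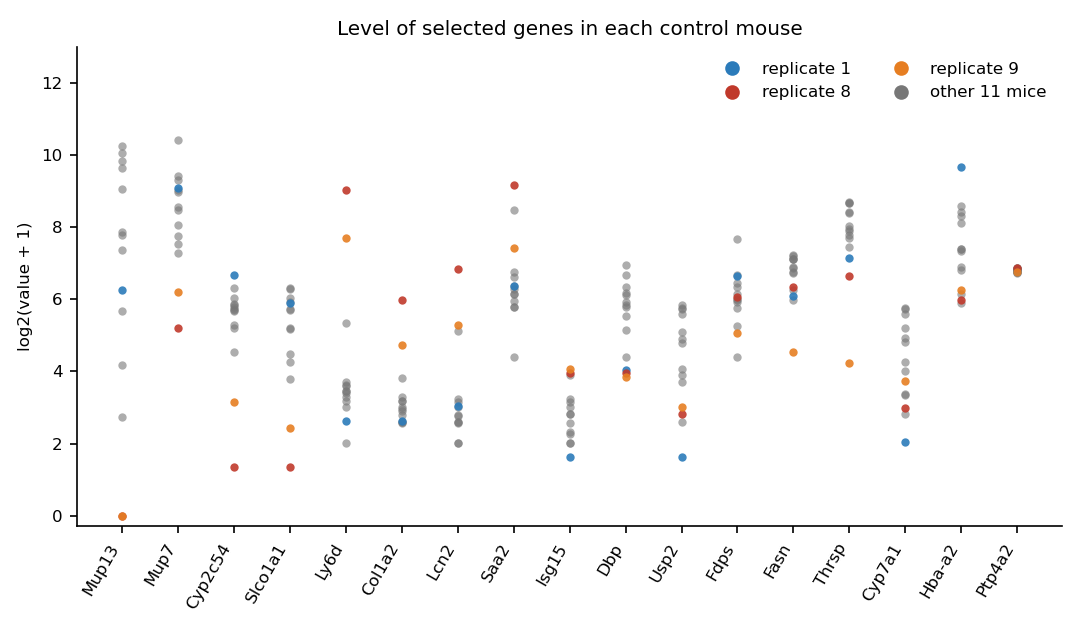
log2(value + 1) of 17 named genes in each control mouse, with replicates 1, 8 and 9 in colour and the other 11 mice in grey. Replicates 8 and 9 lie below the others for Cyp2c54 and Slco1a1 and above them for Ly6d and Col1a2, while for Dbp, Usp2, Fdps and Cyp7a1 the grey points themselves are spread, and Ptp4a2 stays at 1 level.

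Interferon and chemokine genes formed a set of 8. It held Ccl5, Cxcl9 and Cxcl10, which attract T cells, with Rsad2, Isg15 and Xaf1, which interferon induces, and Saa3 and Rhbg. The 3 highest mice were replicate 6 at a mean z score of 1.67, replicate 9 at 1.30 and replicate 8 at 1.20, and the next was replicate 3 at 0.15. Isg15, whose product is a ubiquitin-like modifier, was at 15.9 in replicate 9, 14.5 in replicate 8 and 14.04 in replicate 6, with a median of 6.03 and a low of 2.08 over the 14 mice. Ccl5 was at 45.9 in replicate 6, 34.4 in replicate 9 and 28.3 in replicate 8, with a median of 6.44. The markers of T and NK cells moved with it, summing to 59.9, 45.0 and 41.3 in these mice with a median of 8.48 over all, but Ccl5 is 1 of these 10 markers and the only one with a mean of at least 5. Gzmb was at 0 in all mice and Cd3e had a mean of 0.06, and the part of such cells in the set was not tested. The interferon response motif shown above was in 4 of the 6 promoters that could be matched, those of Rsad2, Saa3, Cxcl10 and Isg15, against 3.04% of all promoters. Isg15 had 3 overlapping matches between 78 and 66 bases before its start, Rsad2 had 1 at 120 and Cxcl10 had 1 at 213. The promoter of Saa3 also held TTATGNAA, TTGCNNAA and TCACNCCAC, so its match was not particular to the interferon motif.

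The acute phase proteins did not move as 1 block. Saa1 was at 933 in replicate 8, 594 in replicate 6 and 335 in replicate 9, with a median of 157 and a low of 54.7 over the 14 mice, and Saa2 followed it. Lcn2, lipocalin-2, was at 113 in replicate 8, 38.0 in replicate 9 and 33.7 in replicate 6 with a median of 6.48. Over the 12 mice without replicates 8 and 9, the genes most like Ly6d were Jun, Saa1 and Saa2 (r = 0.88 each), whereas over 14 mice they were Basp1, Jun and Lgals3 (r = 0.96 each). Fga and Fgb, chains of fibrinogen that are also acute phase proteins, stayed at 307 to 444 and 920.4 to 1366. Of 23 acute phase genes with a mean of at least 5, 9 reached an SD of 0.5 over 14 mice and 8 over 12, against 10.3% and 7.16% of all genes, and the median r between them was 0.01.

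Replicate 1 set apart 2 further sets. The set of 23 genes, which included Zmynd8, Kmt2a, Tkt, Cast and small RNAs, had a mean z score of -2.80 in replicate 1 and -0.19 to 0.65 in the other mice. Zmynd8, a chromatin reader, was at 9.35 in replicate 1 and up to 58.9 elsewhere, and its SD went from 0.62 to 0.30 without replicate 1. Tkt, transketolase, was at 22.9 in replicate 1 with a median of 77.0 over the 14 mice, and its SD went from 0.57 to 0.33. The set of 19 genes held 13 of the 22 mitochondrial transfer RNAs and was at -2.33 in replicate 1. TrnP, for proline, ranged from 1379 in replicate 1 to 9186 with a median of 4744, and TrnL1, for leucine, was at 348 in replicate 1 with a median of 1315. Without replicate 1 the median r went from 0.72 to 0.15 in the set of 23 and from 0.72 to 0.49 in the set of 19. The summed level of all small RNA genes was 7567 in replicate 1, the lowest of the 14 mice, with a median of 24126 and a high of 36193.

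Globin RNA was high in the same mouse. Hba-a2 (chr11:32296489-32297298), an alpha globin gene, was at 822 in replicate 1 with a median of 163 and a low of 58.6 over the 14 mice, and Hbb-bs was at 965 with a median of 236 and a low of 98.4. The 7 measured red cell markers summed to 3014 in replicate 1, 813 in the median and 385 in replicate 8. Of the 5 red cell markers with a mean of at least 5, 4 reached an SD of 0.5, all of them globin genes, and the median r between the 5 was 0.97 over 14 as over 12 mice. Without replicate 1 the SD of Hba-a2 was 0.96 in place of 1.14. Alas2, the haem synthesis enzyme of red cell precursors, ranged from 97.8 to 190.2, with an SD of 0.29.

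The lists of liver functions were uneven in their spread. For lipid droplet genes 7 of 16 reached an SD of 0.5 over 14 mice and 4 over 12, led by Cidec, which promotes large droplets and ranged from 0 to 35.9 (SD 1.31), while Plin2, which coats all droplets, ranged from 249 to 566 (SD 0.31). For fatty acid oxidation and PPAR alpha targets, the genes that fibrates and phthalates are known to act on, the counts were 8 of 28 and 5 of 28. Cyp4a14 ranged from 105 to 583 (SD 0.67) and Acadl from 94.3 to 128 (SD 0.11). Of 19 bile acid genes 6 and then 2 reached 0.5, led by Cyp7a1. Of 22 genes of xenobiotic metabolism 10 and then 4 did. Of 22 hepatokines 11 and then 8 did, with Igfbp1 (SD 1.16) and Gdf15 (SD 1.13, from 5.86 to 84.8) at the top and Selenop (SD 0.15) at the bottom. For the unfolded protein and integrated stress response 7 of 18 did over 14 and over 12 mice. Of 15 glucose and fasting genes 5 and then 3 did, of 13 NRF2 and glutathione genes 5 and then 4, of 16 interferon genes 8 and then 6, of 9 immediate early genes 3 and then 0, and of 4 cell cycle genes 2 and then 1. Of 14 pericentral genes 5 and then 1 reached 0.5, of 19 periportal genes 6 and then 2, and of 24 genes of the urea cycle and amino acid breakdown 2 and then 0. Of the 26 plasma protein genes 3 and then 2 did, and of 15 heat shock genes and of 15 mitochondrial mRNAs and ribosomal RNAs none did. Over all genes the shares were 10.3% over 14 and 7.16% over 12 mice.

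Pairs of genes with a known link were then correlated across mice. Of 50 pairs listed, 36 had both genes in the table with a mean of at least 2. A 2-sided permutation test with 100000 resamples, with Benjamini-Hochberg adjustment over the 36 pairs, called 23 pairs by Pearson's r over 14 mice (22 positive, 1 negative) and 16 by Spearman's rho. Because replicates 8 and 9 stood apart, the same was done over the other 12 mice, where 14 pairs were called by r, all of them among the 23, and 11 by rho. As a background, 3.61% of the 23912070 pairs of genes with a mean of at least 5 had an r of at least 0.6 over 14 mice and 3.8% over 12, whereas 22 and 17 of the 36 listed pairs did. The listed pairs were admitted at a mean of at least 2, and the background was not matched to them in level or spread. The shares are therefore not compared like with like.

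**Figure D5:**
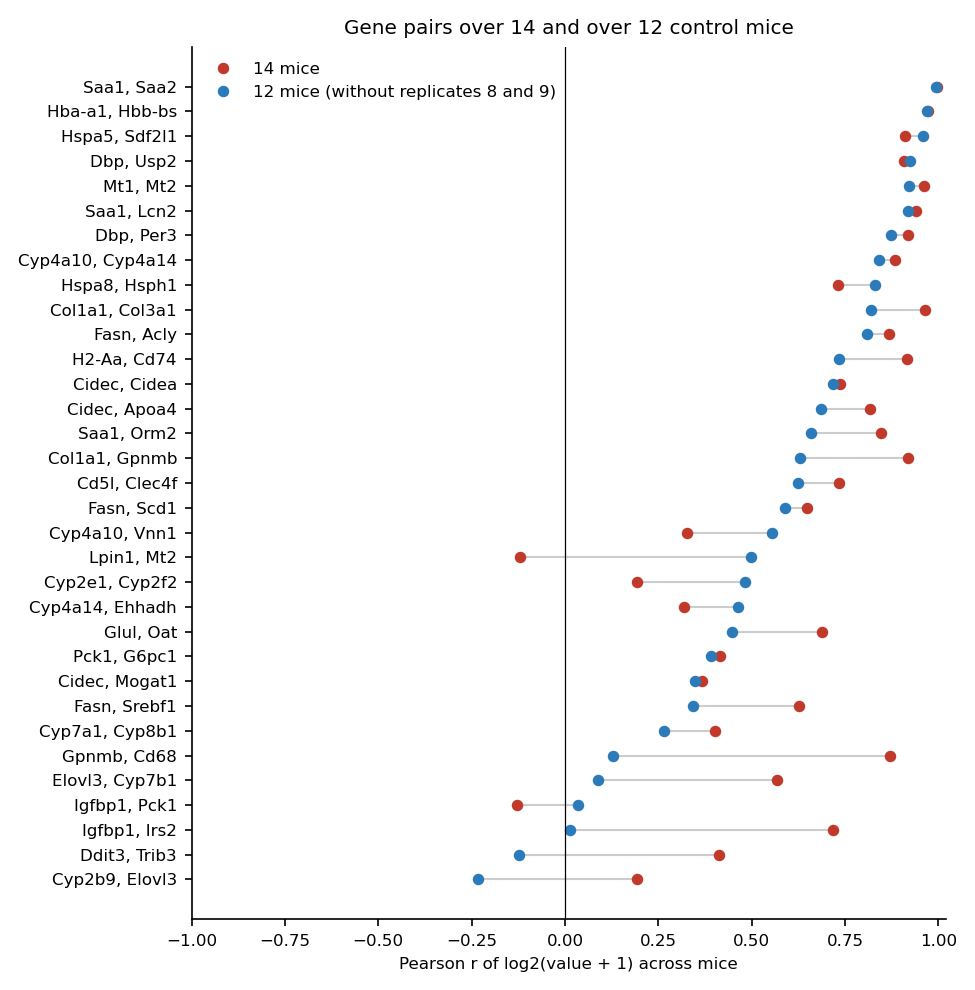
Pearson r of log2(value + 1) for 33 of the 36 gene pairs, over 14 mice in red and over the 12 mice without replicates 8 and 9 in blue. Saa1 with Saa2, Hba-a1 with Hbb-bs and Hspa5 with Sdf2l1 stay near the right edge in both, while Igfbp1 with Irs2 and Gpnmb with Cd68 fall from 0.72 and 0.87 to 0.01 and 0.13.

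Paralogues and targets of 1 regulator were the closest pairs. Over the 12 mice, Saa1 and Saa2 had r = 0.99 and rho = 0.95 (permutation test, adjusted p = 0.00012 and 0.00036), and r was 0.95 without the 2 mice farthest from the median of Saa1. Hba-a1 and Hbb-bs had r = 0.97 and rho = 0.97 (adjusted permutation p = 0.00012 and 0.00036), and 0.95 without the 2 farthest. Hspa5, the chaperone BiP, and Sdf2l1, its partner in the endoplasmic reticulum, had r = 0.96 and rho = 0.94 (adjusted permutation p = 0.00012 and 0.00048), and 0.96 without the 2 farthest. Dbp and Usp2 had r = 0.92 and rho = 0.86 (adjusted permutation p = 0.000432 and 0.00348), and 0.76 without the 2 farthest. Mt1 and Mt2 had r = 0.92 and rho = 0.91 (adjusted permutation p = 0.00036 and 0.00072), and 0.92 without the 2 farthest. Reads of Saa1 and Saa2, and of Mt1 and Mt2, may be shared between copies of similar sequence.

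The other pairs called by r over 12 mice were Saa1 with Lcn2, Dbp with Per3, Cyp4a10 with Cyp4a14, Hspa8 with Hsph1, Col1a1 with Col3a1, Fasn with Acly, H2-Aa with Cd74, Cidec with Cidea and Cidec with Apoa4, with r from 0.69 to 0.92. Of these, Cyp4a10 with Cyp4a14, Cidec with Cidea, Cidec with Apoa4 and H2-Aa with Cd74 were not called by rho over the 12 mice (adjusted permutation p = 0.0524, 0.052, 0.052 and 0.0834). Another 9 pairs were called by r over 14 mice only, among them the following. Gpnmb with Cd68 went from r = 0.87 to 0.13, Igfbp1 with Irs2 from 0.72 to 0.01 and Fasn with Srebf1 from 0.63 to 0.34. Glul with Oat, both expressed around the central vein, went from 0.69 to 0.45. Saa1 with Orm2, Col1a1 with Gpnmb, Cd5l with Clec4f and Fasn with Scd1 had r of 0.59 to 0.66 over 12 mice, and Fasn with Scd1 was called there by rho (0.75, adjusted permutation p = 0.0242). Cyp7a1 and Cyp8b1, both enzymes of bile acid synthesis, were not called (r = 0.40 over 14 mice, adjusted permutation p = 0.199, and 0.26 over 12). Neither were Pck1 and G6pc1 of gluconeogenesis (r = 0.42, adjusted permutation p = 0.187).

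Grouped anew without replicates 8 and 9, the 500 most variable genes gave 9 sets with 169 genes. A set of 21 genes shared 9 genes with the sterol set, including Fabp5, Dhcr7, Fdps and Idi1. A set of 18 shared 7 with the clock set, led by Usp2, Dbp, Tef and Alas1. A set of 9 joined Saa1, Saa2, Ly6d and Lcn2 with Cxcl9, Ccl5 and Isg15, and was highest in replicate 6. A set of 12 genes with the globins shared none with the sets of 14 mice, and a set of 9 led by Manf, Creld2 and Hspa5, chaperones and other proteins of the endoplasmic reticulum, shared 1. The largest, with 64 genes of which 19 were small RNAs, was lowest in replicate 1 and shared 20 genes with the set of 23.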

How the data were processed

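RNA of the medial lobe of 54 livers was sequenced with a 3′ mRNA kit, and the 14 control samples were analysed. The authors aligned reads to GRCm38 and quantified them with STAR, RSEM and Salmon (submitters' processing notes). The deposited table is named for TPM, but its values are a signal: whole numbers times 1 factor per mouse (0.764 to 1.04). They were read here as rounded TPM scaled by a size factor, which is an inference from the values. TPM divides by transcript length although 3′ libraries give about 1 fragment per transcript, which raises short RNAs. Depth per mouse is unknown and no count test was run.

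Levels are deposited values, spread is the SD of log2(value + 1) over 14 mice among genes with a mean of at least 5. Sets used the 500 genes with the highest SD, average linkage on 1 - r and a cut of 0.4, at least 8 genes. Pairs were tested by permutation (100000 resamples, the smallest p being 1e-05). Named genes were the 20 highest by mean, the 20 highest and 10 lowest by SD, the 5 nearest to each set's mean, the pairs, and of each list up to 4 of the highest and 2 of the lowest SD. Others were chosen after their values were seen, as were the protein-coding ranking, the motifs and the promoters shown. Members and the 29 gene and 15 marker lists were chosen with earlier results of these data known. Methods were tested on simulated data. Gene types, lengths and coordinates came from GENCODE vM21 and RefSeq. Python 3.11.15, numpy 2.4.6, pandas 2.3.3 and SciPy 1.17.1 were used. Some listed genes were not analysed here, as the table did not match their names, and the results of a few others are not reported here. The alternatives were other pseudocounts, filters and scalings, the MAD, other cuts and each mouse left out.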

Additional observations from a re-analysis of the deposited data

How the results depend on the processing

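Of the 181 alternative values of the main results, 162 stayed within the limits set for them. For counts the limit was a fixed fold range, and for the share of the 20 highest RNAs the SD between mice. For the median SD and the first component it was a standard error computed from leaving out 1 mouse at a time. Most alternatives left out 1 mouse, and that error comes from the same values. Staying within it was thus nearly fixed in advance and is no test of robustness. A pseudocount of 5 gave 333 genes with an SD of at least 0.5 and 66 with at least 1, a median SD of 0.20 and 10 shared genes among the 20 most variable. A mean of at least 1 gave 1911, 287 and a median SD of 0.29, and a mean of at least 20 gave 257, 53 and 7 shared genes. With the scaled median absolute deviation (MAD), 62 genes reached 1, the median was 0.22 and 7 genes were shared. Protein-coding genes alone shared 1, Mup13. Without replicates 8 and 9, an alternative chosen after seeing the data, 75 genes reached an SD of 1. Without mitochondrial ribosomal and transfer RNAs the 20 highest held 39.6% of the sum.

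Called pairs numbered 15 with the first principal component removed, 13 without the 2 mice farthest from the median of the first gene and 14 without replicates 8 and 9. With the first component removed, the correlation of Col1a1 and Gpnmb became -0.30. The cause was not tested. Leaving out 1 mouse gave 585 to 754 genes with an SD of at least 0.5, 98 to 127 with at least 1, a median SD of 0.24 to 0.26, 16 to 20 shared genes, a share of 45.9% to 46.1%, 30 to 32 genes for 50% of the sum, 20.1% to 33.4% on the first component, 172 to 245 genes in sets and 19 to 24 pairs. Without replicate 8, Gpnmb with Cd68, Igfbp1 with Irs2 and Glul with Oat were no longer called. Without replicate 9, Fasn with Scd1, Fasn with Srebf1, Gpnmb with Cd68 and Igfbp1 with Irs2 were among those not called. No paired analysis was possible because only the control group was analysed, so no 2 groups were compared. Unknown depth limits the values of low genes most.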
